A study of Mus musculus with 6 samples.

Results

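Stretches of the mouse genome where estrogen receptor alpha (ERα) peaks lie close together were picked out from ERα chromatin immunoprecipitation sequencing (ChIP-seq) of the uterus. The genome was divided into 100 kb windows from the start of each of chromosomes 1 to 19 and X (mm9). A window was called dense when the peak counts of the 4 ligand-treated libraries added up to 30 or more. This rule kept 520 of the 26368 windows, or 520 of the 16110 with a peak in any list. Dense windows were therefore chosen by their ligand peak counts, and those counts are given as a description, with no test.

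All mice were ovariectomized C57BL/6J females aged 12 weeks. They were either AF-2 mutants (AF2ERKI, a change in activation function 2 of ERα) or wild-type littermates. Within each genotype, mice were injected intraperitoneally with fulvestrant (ICI182780, called ICI here) at 2 mg/kg, with tamoxifen (Tam) at 2 mg/kg, or with 50 µl of DMSO, the vehicle in which both ligands were dissolved. Uteri were taken after 1 h and pooled from 6 mice per library, with 1 library for every genotype under every treatment. A code in the sample titles, E1h, has no explanation in the labels and is taken here as the time of 1 h; whether an estrogen was given as well cannot be told from them. Since each group is a single library of pooled whole organs, no difference between groups has a replicate check and no p-value is given. Binding in a few cells and weak binding in many cells cannot be told apart in whole uterus. The ligand lists held 45837 peaks in the AF-2 mutant with ICI, 26482 in the wild type with ICI, 36538 in the AF-2 mutant with tamoxifen and 37327 in the wild type with tamoxifen. The vehicle lists held 5027 peaks in the AF-2 mutant and 3712 in the wild type. Peaks carry no height and read depth is unknown, so the reason for the length of a list cannot be told apart between library and receptor. Intervals below are 95% intervals for counting error only.

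ERα is a ligand-activated transcription factor of the nuclear receptor family that binds DNA as a dimer, mostly at enhancers away from promoters. Binding sites of nuclear receptors are not spread evenly. They gather in clusters around regulated genes, where several enhancers can contact the same promoter. AF-2 is the ligand-dependent surface of the receptor that takes up coactivators when an agonist is bound. ICI and tamoxifen both occupy the hormone-binding pocket and displace the helix that forms this surface, and tamoxifen acts as an agonist in some tissues, the uterus among them.

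Dense windows were a thin layer of the genome with a disproportionate part of the called peaks. They made up 1.97% of all windows, or 52 Mb, and held 19483 of the 146118 ligand peaks on these chromosomes, which is 13.3%. Their summed count had a median of 35 (quartiles 32 and 40.25) and reached 70, against a mean of 5.54 over all windows. The counts ran on across the threshold with no gap: 57 windows had a sum of 30 and were kept, and 84 had a sum of 29 and were not. Windows at 30 averaged 9.21 mutant ICI, 5.58 wild-type ICI, 7.60 mutant tamoxifen and 7.61 wild-type tamoxifen peaks. Those at 29 averaged 8.96, 5.15, 7.83 and 7.05 in the same lists. A sum of 40 or more was found in 158 dense windows, 50 or more in 40 and 60 or more in 13.

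**Figure D1:**
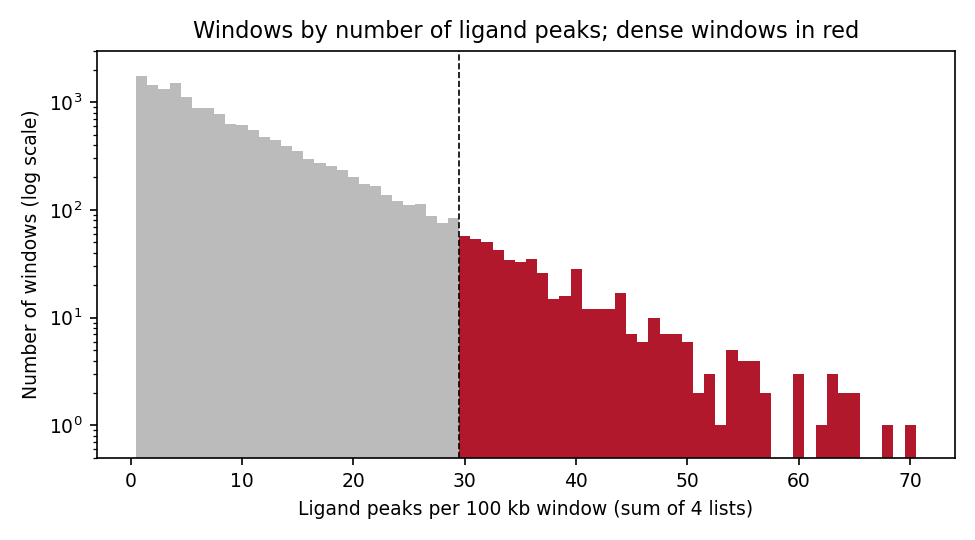
Number of 100 kb windows (vertical axis, log scale) by the summed peak count of the 4 ligand lists (horizontal axis), with the 520 dense windows in red to the right of the dashed line at the threshold. The counts run on across the threshold with no gap, at 75 windows with a sum of 28, 84 with 29 and 57 with 30. The fullest window holds 70 peaks.

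Every ligand list contributed to every dense window. With ICI, dense windows held between 6 and 23 peaks in the mutant (median 11) and between 1 and 13 in the wild type (median 6). With tamoxifen they held between 4 and 21 peaks in the mutant (median 10) and between 3 and 20 in the wild type (median 9). Vehicle peaks were few, with 0 to 6 per window and a median of 1 in each genotype. As a share of its own list, the mutant tamoxifen library had the most peaks in dense windows, 14.3% (13.97 to 14.7). The shares were 13.2% (12.9 to 13.5) for mutant ICI, 12.7% (12.3 to 13.1) for wild-type ICI and 13% (12.7 to 13.3) for wild-type tamoxifen. The ligand counts chose the dense windows, so the order of these shares is a description only. The vehicle lists, which took no part in the choice, had 10.5% (9.63 to 11.3) of their peaks there in the mutant and 11.2% (10.2 to 12.3) in the wild type, on 1.97% of the windows. When each ligand list was left out of the choice in turn, the order of the ligand lists changed. The share was then 15.4% for wild-type ICI (706 windows) and 12.5% for mutant tamoxifen (465 windows). For wild-type tamoxifen it was 12.0% (505 windows) and for mutant ICI 9.63% (369 windows). These sets of windows differ in size, so their shares cannot be ranked directly.

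**Figure D2:**
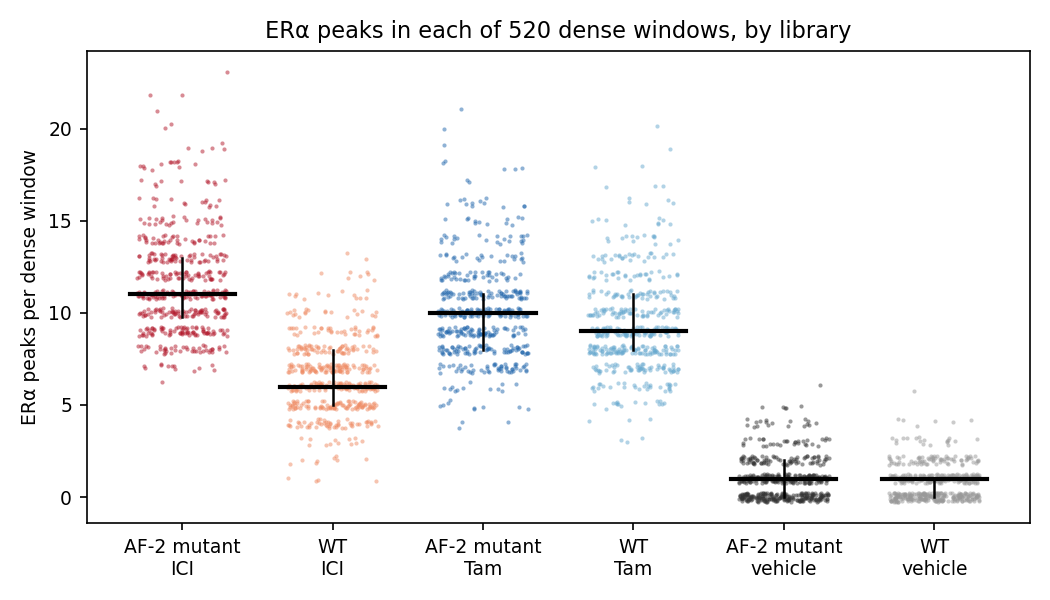
ERα peaks per dense window in each of the 6 libraries (vertical axis, number of peaks, 1 point per window with slight jitter; thick bar, median; thin bar, quartiles). The medians are 11 and 6 for ICI in the AF-2 mutant and the wild type, 10 and 9 for tamoxifen, and 1 in both vehicle libraries.

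The fullest windows lay on chromosomes 14, 8, 4, 1 and 18. The window chr14:26300001-26400000 had 23 mutant ICI peaks, 11 wild-type ICI peaks, 18 tamoxifen peaks in each genotype, 0 mutant vehicle peaks and 2 wild-type vehicle peaks. Its peaks merged into 25 sites, where a site is a stretch of overlapping peaks of any of the ligand lists, and 10 of these were held by all 4 lists. One of them, chr14:26328986-26329206, also had a wild-type vehicle peak. In chr8:122500001-122600000, the mutant had 21 peaks with each ligand, whereas the wild type had 9 with ICI and 17 with tamoxifen. The mutant vehicle list had 1 peak there and the wild-type vehicle list 3, and the site chr8:122528297-122528531 was bound in all 6 libraries. Further along the same chromosome, chr8:122800001-122900000 held 29 sites, the most of any dense window, of which 12 were in a single list and 7 in all 4.

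Windows of equal fullness differed in how far the lists shared their sites. In chr18:36000001-36100000, with 64 ligand peaks, 12 of 20 sites were held by all 4 lists. In chr1:74000001-74100000, also with 64, 6 of 26 sites were. Over all dense windows, the share of sites held by all 4 lists ran from 5.88% in chr2:92700001-92800000 and chr7:139400001-139500000 to 87.5% in chr16:30100001-30200000, with a median of 35.7%. Each dense window had at least 1 such site.

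**Figure D3:**
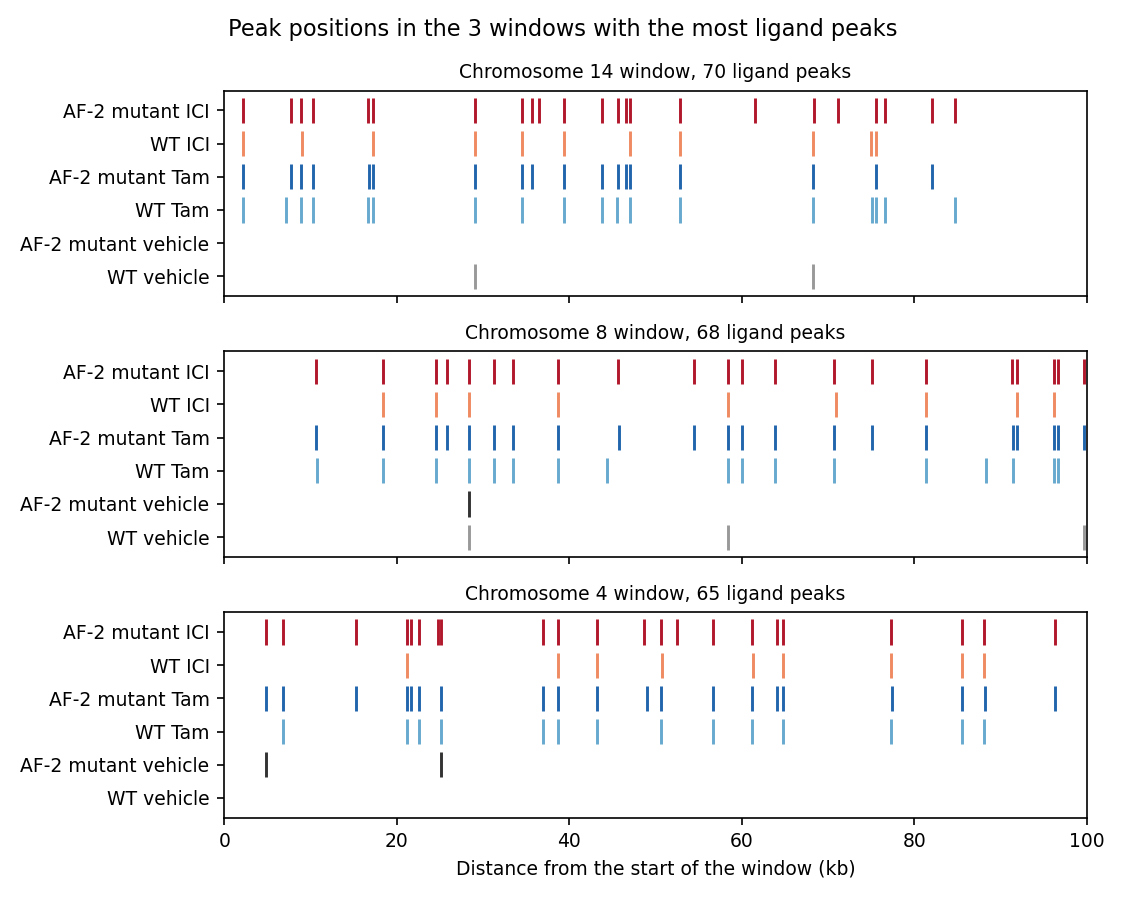
Positions of ERα peaks in the 3 windows with the most ligand peaks (horizontal axis, distance from the start of the window in kb; 1 row per library; 1 tick per peak midpoint). Ticks line up in columns across the ligand rows at shared sites, and the vehicle rows hold 0 to 3 peaks in each window.

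Most dense windows stood alone, and the others formed short runs. Of the 520, 336 had no dense window beside them, while 184 (35.4%) touched another and formed 82 runs of 2 to 5 windows. The longest run, chr14:25900001-26400000, covered 5 windows with 247 ligand peaks. The mutant accounted for 76 ICI, 66 tamoxifen and 4 vehicle peaks of this run, and the wild type for 39, 66 and 3. Of the 4 runs of 4 windows, 3 lay on chromosome 8. The fullest of them, chr8:122700001-123100000, had 230 ligand peaks. The mutant gave 66 ICI and 60 tamoxifen peaks of these, and the wild type 45 and 59. The other 2 on chromosome 8 were chr8:124400001-124800000 with 178 ligand peaks and chr8:72900001-73300000 with 147, and the run on chromosome 17, chr17:29200001-29600000, had 152.

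The surroundings of dense windows were rich in ERα peaks as well. Windows next to a dense window averaged 19.04 ligand peaks, and those of them that were not dense themselves averaged 13.7, against 5.54 over all windows. The excess faded with distance: windows not dense themselves averaged 11.1 peaks at 200 kb, 8.65 at 500 kb, 7.55 at 1000 kb and 6.96 at 2000 kb from a dense window, against 4.90 over all windows that were not dense. The vehicle lists, which did not choose the windows, also fell with distance up to 500 kb. Their means cover all windows at a distance, those that were dense themselves included. Mutant vehicle peaks averaged 1.01 in dense windows, 0.54 in the windows beside them and 0.36 at 500 kb, against 0.19 over all windows. Wild-type vehicle peaks averaged 0.80, 0.40 and 0.24 at these places, against 0.14 over all windows. Further out the wild-type mean did not fall steadily, at 0.17 at 1000 kb and 0.22 at 2000 kb. The mutant mean was 0.31 and 0.24 at these distances.

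**Figure D4:**
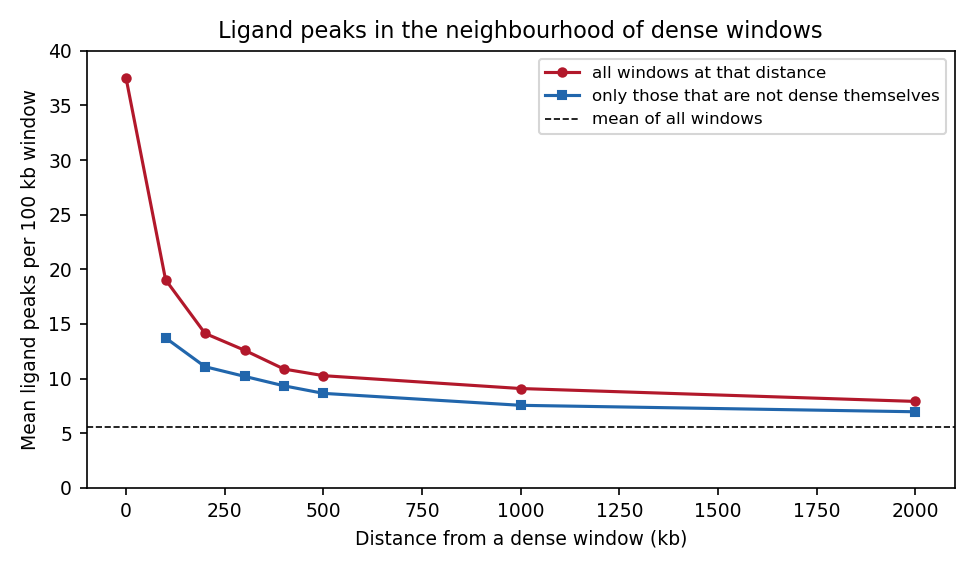
Mean number of ligand peaks per 100 kb window (vertical axis, sum of the 4 ligand lists) at increasing distance from a dense window in kb (horizontal axis), for all windows at that distance (red) and for those that are not dense themselves (blue). Both lines fall towards the dashed mean of all windows, 5.54, and lie above it up to 2000 kb.

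Chromosomes differed in how many dense windows they carried. Chromosome 11 had 40 in 1217 windows (3.29%, 2.36 to 4.45), chromosome 8 had 41 in 1313 (3.12%, 2.25 to 4.21) and chromosome 2 had 52 in 1818 (2.86%, 2.14 to 3.73). Among the autosomes, chromosome 3 had the smallest share, 16 of 1596 (1.00%, 0.574 to 1.62). The X chromosome had 4 of 1665 (0.24%, 0.065 to 0.614), and 3 of these lay within 1 Mb of each other, at chrX:11100001-11200000, chrX:11400001-11500000 and chrX:11700001-11800000. The X window chrX:96600001-96700000 had 6 mutant vehicle peaks against 1 wild-type vehicle peak.

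Dense windows were more frequent towards the distal end of chromosomes. Mouse chromosomes have the centromere at the start of the numbering, and the span up to the last peak was divided into 5 equal parts. Among windows with a ligand peak, the share that was dense was 1.77% (1.29 to 2.36) in part 1, 2.95% (2.39 to 3.6) in part 2, 3.31% (2.71 to 3.997) in part 3, 3.24% (2.66 to 3.89) in part 4 and 4.45% (3.82 to 5.15) in part 5, the most distal. The mean number of ligand peaks per window with a ligand peak moved in the same way, at 10.2 in the most distal part and 7.81 in part 1. Gene density along the chromosomes was not compared, since no mm9 annotation was used.

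Within a dense window the sites were spread over most of its length. The 520 windows held 7280 ligand sites, with 8 to 29 in each (median 13). The first and the last site of a window lay a median of 84.6 kb apart, and a median of 7 of its 10 stretches of 10 kb held a site. All 10 were occupied in 16 windows. Neighbouring sites of a window were a median of 4357 bp apart (4163 to 4559), against 8556 bp in the other windows (8421 to 8710), a contrast that the rule itself brings about. Close pairs were present too: 19.2% of neighbouring sites in dense windows lay under 1 kb apart (18.3 to 20.2), against 14.7% in other windows (14.3 to 15.0). This difference, too, is one that the rule favours. The shortest median spacing of any dense window was 1103 bp, between the 15 sites of chr17:29400001-29500000, and chr5:120000001-120100000 had a median of 1213 bp between its 22 sites. Within a single ligand list, the closest peaks on these chromosomes had midpoints 266 bp apart.

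Sites in dense windows were shared by more of the ligand lists than sites elsewhere. All 4 lists held 2540 of the 7280 sites (34.9%, 33.8 to 36.0), against 12582 of 56274 sites in other windows (22.4%, 22.0 to 22.7). A single list held 23.0% of sites in dense windows (22.1 to 24.0) and 37.1% elsewhere (36.7 to 37.5). The rule favours this outcome, because a site shared by all the ligand lists counts once for each of them. When windows were chosen instead by holding 13 or more sites, however many lists held each, 30.1% of their sites were held by all 4 lists (28.96 to 31.3), against 23.1% in the other windows. The share was higher at each step in the number of ligand peaks in the window, at 15.1% for windows with 1 to 9 peaks, 25.4% for 10 to 19, 30.02% for 20 to 29, 33.9% for 30 to 39 and 36.6% for 40 or more.

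The combinations of lists that held a site were uneven. A site of several lists adds more to the sum than a site of a single list, so the rule favours sites of several lists in dense windows, and the shares inside and outside are a description only. After the sites of all 4 lists, the most frequent combination in dense windows was every list except wild-type ICI, with 1166 sites (16.0%, 15.2 to 16.9), against 11.5% elsewhere (11.3 to 11.8). Both mutant lists without any wild-type list held 874 sites (12.0%, 11.3 to 12.8), against 10.7% elsewhere (10.5 to 11.0). Mutant ICI alone held 714 sites (9.81%, 9.13 to 10.5), against 13.7% elsewhere (13.4 to 14.01). Both wild-type lists without any mutant list held 147 sites (2.02%, 1.71 to 2.37), against 3.25% elsewhere (3.11 to 3.40). The rarest combination, wild-type ICI with mutant tamoxifen only, had 32 sites in dense windows.

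Peak by peak, each ligand list shared more of its peaks with each of the other ligand lists inside dense windows than outside, which the rule likewise favours. Of mutant ICI peaks, 48.5% had a wild-type counterpart under ICI in dense windows (47.2 to 49.7), against 41.1% elsewhere (40.6 to 41.6). Conversely, wild-type ICI peaks had a mutant counterpart under ICI at 86.7% (85.5 to 87.9), against 70.7% elsewhere (70.1 to 71.3). Mutant tamoxifen peaks overlapped a wild-type tamoxifen peak at 72.8% (71.5 to 73.98), against 64.2% elsewhere (63.7 to 64.8). Where peaks of 2 lists overlapped, their midpoints were close in both places. The median distance between mutant and wild-type midpoints was 16 bp for ICI and 11 bp for tamoxifen in dense windows, and 18 bp and 12 bp elsewhere.

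**Figure D5:**
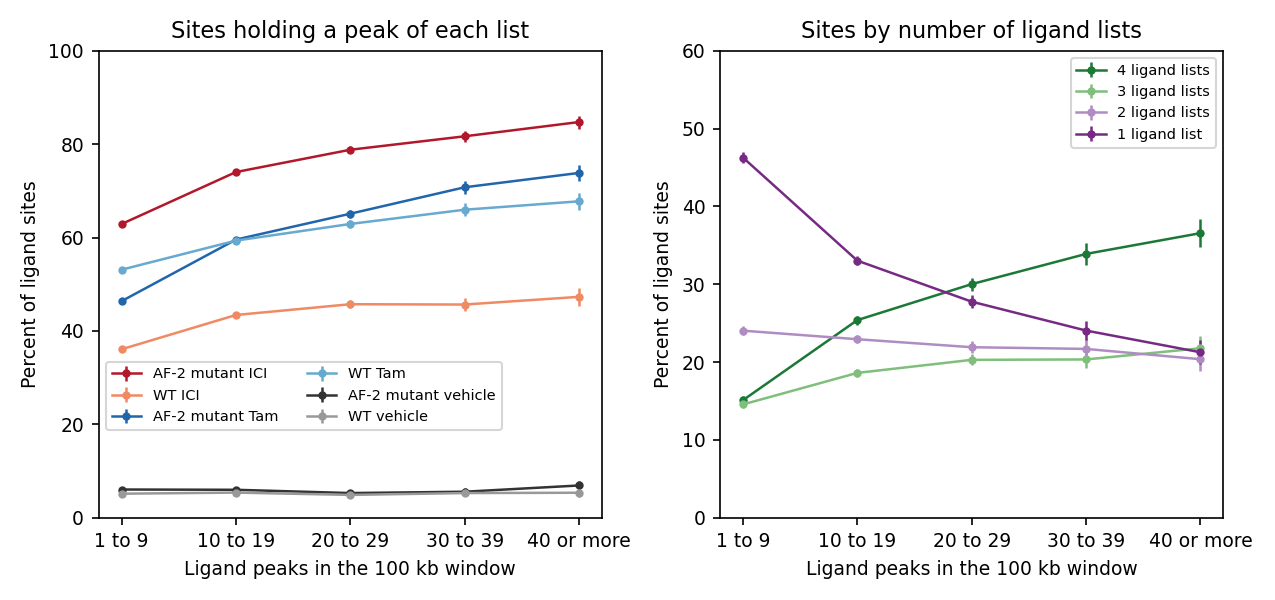
Percent of ligand sites (vertical axes) holding a peak of each library (left) and held by 1, 2, 3 or 4 ligand lists (right), by the number of ligand peaks in the 100 kb window (horizontal axes). Points are shares with exact 95% binomial intervals; dense windows are the classes 30 to 39 and 40 or more. The share held by all 4 lists climbs between 15.1% and 36.6%, while the vehicle lines stay between 4.91% and 6.93%.

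The genotypes were compared under each ligand by their peak counts inside and outside dense windows. The rule used these counts and each group is 1 library, so the comparison is a description. Whether the AF-2 mutation altered how densely the receptor bound was not tested. With ICI, the mutant had 6029 peaks in dense windows and the wild type 3369, a ratio of 1.79 (1.72 to 1.87). Outside dense windows the ratio was 1.72 (1.69 to 1.75), and the intervals overlapped. The mutant had more ICI peaks in 488 dense windows, the wild type in 8, and 24 were tied. Of all 5690 windows with 10 or more ligand peaks, the mutant had more in 80.7% and the wild type in 7.89%. At least 2 times as many ICI peaks in the mutant were found in 220 dense windows (42.3%), against a background of 44.8% of the 5690 windows. The reverse was found in 0 dense windows, against a background of 1.34%. Since counts in dense windows are higher, a 2-fold difference by counting error is rarer there than in the background. Windows chosen by the tamoxifen lists alone (sum of 15 or more, 647 windows) keep the ICI lists out of the choice. They gave a ratio of 1.83 (1.76 to 1.91), against 1.71 elsewhere, which lies below that interval. The contrast changed with the choice of windows. Leaving only the mutant tamoxifen list out gave 1.72, against 1.73 elsewhere, and leaving only mutant ICI out gave 1.68, against 1.74. Without wild-type ICI the ratio was 1.90, against 1.70, and without wild-type tamoxifen 1.85, against 1.71.

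Some dense windows held almost no wild-type ICI peaks. The window chr18:79200001-79300000 had 14 mutant ICI peaks and 1 wild-type ICI peak, beside 11 mutant and 10 wild-type tamoxifen peaks and no vehicle peak. In chr2:169600001-169700000 there were 13 mutant and 1 wild-type ICI peaks, with 11 mutant and 5 wild-type tamoxifen peaks. In chr15:32200001-32300000 there were likewise 13 and 1 with ICI, with 10 and 6 with tamoxifen, in the mutant and the wild type. These windows were picked for the highest ratio of mutant to wild-type ICI peaks, so the low wild-type ICI counts follow from the choice. The wild-type tamoxifen count was close to that of the mutant in the first of them only. At the other end, the mutant had 7 ICI peaks and the wild type 9 in chr15:100100001-100200000, chr9:22800001-22900000 and chr1:120900001-121000000. The site chr1:120944409-120944619 in the last of these was bound in all 6 libraries.

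With tamoxifen, the mutant had slightly more peaks than the wild type in dense windows and slightly fewer elsewhere. The rule used these counts, so this contrast is a description only. The counts were 5234 and 4851 in dense windows, a ratio of 1.08 (1.04 to 1.12), against 0.964 outside them (0.949 to 0.979). In the 5170 windows with 10 to 29 ligand peaks the ratio was 1.01 (0.996 to 1.03). The mutant was ahead in 2071 of those and the wild type in 1932, so fewer mutant peaks were not seen there. The mutant had more tamoxifen peaks in 267 dense windows, the wild type in 174, and 79 were tied. The backgrounds were 41.1% and 37% of the 5690 windows. A count at least 2 times as high was seen in 26 dense windows for the mutant (5%), against a background of 12.1%. It was seen in 10 for the wild type (1.92%), against 11.2%. Such a difference by counting error is rarer at the higher counts of dense windows. Windows chosen by the ICI lists alone (sum of 15 or more, 545 windows) gave a ratio of 1.10 (1.06 to 1.14), against 0.961 elsewhere. With the ICI lists weighted to equal length in that choice, the ratio was 1.06 (1.02 to 1.11), against 0.968 elsewhere. Leaving only the mutant tamoxifen list out of the choice gave 1.01 (0.969 to 1.05), against 0.975 elsewhere, which lies within that interval. Leaving only the wild-type tamoxifen list out gave 1.16 (1.11 to 1.21), against 0.954 elsewhere. When windows were graded by their ICI peaks, the tamoxifen ratio of mutant to wild type was 0.389 (0.345 to 0.438) in windows with no ICI peak. It was 0.903 (0.878 to 0.928) with 1 to 4 ICI peaks, 1.01 (0.983 to 1.03) with 5 to 9, 1.04 (1.01 to 1.08) with 10 to 14 and 1.10 (1.06 to 1.14) with 15 or more. The mutant contributes more ICI peaks than the wild type to these grades, and the part of this in the trend was not tested.

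The dense windows with the highest mutant to wild-type ratio under tamoxifen were chr7:56700001-56800000, chr2:35100001-35200000 and chr2:165400001-165500000. The first had 11 mutant and 3 wild-type tamoxifen peaks, and the mutant was ahead with ICI too, at 14 against 2. The second had 12 and 4 with tamoxifen and 11 and 5 with ICI in the mutant and the wild type. The third had 9 and 3 with tamoxifen and 13 and 5 with ICI. The lowest ratios were in chr2:154500001-154600000 and chr3:58900001-59000000, with 4 mutant and 13 wild-type tamoxifen peaks in each, and in chr9:55200001-55300000 with 5 and 14. With ICI these windows had 6, 7 and 7 peaks in the mutant and 7, 6 and 7 in the wild type. Their ICI ratios of 0.857, 1.17 and 1 lay below the 1.79 of all dense windows. Relative to the ratio of each ligand over dense windows, the counts of these windows leaned to the wild type under both ligands. The ICI counts are small and also entered the rule, so the lean under ICI was not tested. The gap under tamoxifen is how these windows were picked.

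ICI and tamoxifen, given at the same dose for the same time, stood in opposite order in the genotypes. ICI is a steroid and tamoxifen a nonsteroidal triphenylethylene. In the mutant, dense windows held 6029 ICI and 5234 tamoxifen peaks, a ratio of 1.15 (1.11 to 1.196), against 1.27 outside them (1.25 to 1.29). In the wild type they held 3369 ICI and 4851 tamoxifen peaks, a ratio of 0.694 (0.664 to 0.726), against 0.712 outside (0.700 to 0.724). These ratios are made of the counts that chose the windows, so the values inside and outside are a description only. In the mutant, ICI gave at least 2 times the tamoxifen count in 4 dense windows (0.769%), against a background of 12.5%. The reverse occurred in 0, against 0.756%. Here too, counts in dense windows are higher, so a 2-fold difference by counting error is rarer there than in the background. In the wild type, tamoxifen gave at least 2 times the ICI count in 105 dense windows (20.2%), against 28.7%, and ICI did so in 1 (0.192%), against 4.24%. That window, chr2:92200001-92300000, had 14 ICI and 8 tamoxifen peaks in the mutant, beside 7 and 3 in the wild type. Of its 18 sites, 10 were in a single list. The smallest ratio of ICI to tamoxifen in the wild type was in chr18:79200001-79300000, at 1 against 10 peaks, followed by chr11:78900001-79000000 at 1 against 7. In these windows the mutant had 14 and 12 ICI peaks and 11 tamoxifen peaks in each.

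Vehicle peaks, which the rule did not use, were also gathered in dense windows. A vehicle peak of either genotype was found in 405 of the 520 (77.9%, 74.1 to 81.4), against 2799 of the 5170 windows with 10 to 29 ligand peaks (54.1%, 52.8 to 55.5) and 2395 of the 10309 with 1 to 9 (23.2%, 22.4 to 24.1). The background over all 5690 windows with 10 or more ligand peaks was 56.3%. Both genotypes had a vehicle peak in 182 dense windows (35%, 30.9 to 39.3), against a background of 17.3%. No vehicle peak was called in 115 dense windows.

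Per site, however, the share with a vehicle peak was close inside and outside dense windows, and the intervals overlapped. Of ligand sites in dense windows, 721 of 7280 had a vehicle peak of either genotype (9.90%, 9.23 to 10.6), against 5357 of 56274 in other windows (9.52%, 9.28 to 9.76). The mutant vehicle list marked 6.09% of dense-window sites (5.55 to 6.66) and 5.88% of others (5.69 to 6.08). The wild-type vehicle list marked 5.33% (4.82 to 5.87) and 5.21% (5.02 to 5.39). Among sites held by all 4 ligand lists, those with a vehicle peak were 17.9% in dense windows (16.4 to 19.4) and 20.1% elsewhere (19.4 to 20.8). Among sites of a single ligand list they were 3.34% (2.53 to 4.32) and 3.89% (3.63 to 4.16). Within each of these classes the share was thus slightly lower in dense windows, and for sites of all 4 lists the intervals barely met. For those sites it was 22.9% in windows with 1 to 9 ligand peaks and 19.7% with 10 to 19. It was 18.0% with 20 to 29, 17.3% with 30 to 39 and 18.7% with 40 or more. The near-equal shares over all sites also rest on the mix of classes, since the rule favours sites of all 4 lists in dense windows. Dense windows had more vehicle peaks beside more ligand sites.

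Vehicle peaks in dense windows lay mostly at sites that were also called with ligand. In the mutant 440 of 526 did so (83.7%, 80.2 to 86.7), against 73.0% outside dense windows (71.7 to 74.3), and in the wild type 387 of 416 (93.0%, 90.1 to 95.3), against 88.6% (87.5 to 89.7). The rule favours this difference, since dense windows hold more ligand sites for a vehicle peak to meet. The vehicle lists of the genotypes shared few of their peaks, and the intervals inside and outside dense windows overlapped. In dense windows 119 peaks of the mutant list overlapped one of the wild-type list (22.6%, 19.1 to 26.4), against 21.6% outside (20.4 to 22.9). They were 28.6% of the wild-type list in dense windows (24.3 to 33.2), against 29.6% outside (28.0 to 31.1). The mutant had 1.26 times as many vehicle peaks as the wild type in dense windows (1.11 to 1.44) and 1.37 times outside them (1.31 to 1.43).

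The window with the most vehicle peaks was chr5:120000001-120100000, with 5 of the mutant list and 6 of the wild-type list. The mutant had 19 ICI and 16 tamoxifen peaks in this window, and the wild type 11 and 14. The sites chr5:120013889-120014119 and chr5:120047093-120047316 in it were bound in all 6 libraries. Next came chr1:75300001-75400000 with 5 mutant and 3 wild-type vehicle peaks, and then chr9:65000001-65100000 with 5 and 2, which had the most ligand peaks of the 6 dense windows tied at 7 vehicle peaks. In the chromosome 9 window, 9 of 13 sites were held by all 4 ligand lists and 0 by a single list. The mutant had 13 peaks with either ligand there, and the wild type 10 ICI and 12 tamoxifen peaks.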

How the data were processed

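ERα ChIP-seq peak lists of 6 mouse uterus libraries, 1 per group, were used as the authors deposited them. They give positions only, with no height, score or p-value, and every peak is 200 bp wide. Per the submitters' processing notes, HOMER 4.10.3, Bowtie2 2.1.0, bedtools 2.24.0, Picard and SAMtools were used with build mm9. The sources used here do not give their roles, the peak threshold or any input control, and read depth is unknown, so list length limits every comparison.

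Peaks were assigned to 100 kb windows by midpoint in pandas 2.3.3 and numpy 2.4.6 under Python 3.11.15, with scipy 1.17.1 for intervals. The number of windows per chromosome was taken up to the last peak of any list. Ligand sites are peaks of the 4 ligand lists merged at 1 bp of overlap or more. Shares have exact (Clopper-Pearson) binomial intervals and ratios exact conditional binomial intervals, both at 95%. A fold call needed 10 or more ligand peaks in the window and a count at least 2 times the other. The counting was tested on simulated data.

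The members, lists and named windows were chosen with earlier results of these data known. Named windows were the 6 with the most ligand peaks, the 3 highest and 3 lowest for each genotype ratio and for the wild-type ICI to Tam ratio, the 3 with the most vehicle peaks, and windows touching another. The X windows, the extremes of site sharing and of spacing, and the window with the most sites, were named after their values were seen. Genes, estrogen response elements and sequences were not analysed here, because the tables at hand are of another build, GRCm38.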

Additional observations from a re-analysis of the deposited data

Results flagged for a closer look

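In dense windows the ratio of ICI to tamoxifen peaks was 1.15 in the AF-2 mutant and 0.694 in the wild type, so that the ligands stood in opposite order in the genotypes. Outside them the ratios were 1.27 and 0.712, so this order was not particular to dense windows. With 1 library behind each count, the difference between the genotypes was not tested.

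Peaks outside chromosomes 1 to 19 and X were left out of the windows. They numbered 21 for mutant ICI, 13 for wild-type ICI, 14 for mutant tamoxifen and 18 for wild-type tamoxifen, against 1 in the mutant vehicle list and 0 in the wild-type vehicle list.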

How the results depend on the processing

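The number of dense windows followed the threshold: 991 at a sum of 25 or more and 158 at 40 or more, against 520. It was 305 when peaks of a list closer than 1 kb were merged. Leaving out each ligand list in turn gave 369 to 706. The mutant to wild-type ratio under ICI was 1.61 with merged peaks, against 1.66 in the other windows. It was 1.68 without mutant ICI, against 1.74 in the other windows, and 1.72 without mutant tamoxifen, against 1.73. It was 1.90 without wild-type ICI, against 1.70, and 1.85 without wild-type tamoxifen, against 1.71. Under tamoxifen it was 1.01 to 1.16 with a list left out, lowest without the mutant and highest without the wild-type tamoxifen list, which keeps that list's own high counts out of the choice. The share of sites held by all 4 lists was 33.5% at 25, 36.6% at 40, 41.8% with merged peaks, 33.3% at an overlap of 100 bp, 30.1% with windows chosen by 13 or more sites (chosen after seeing the data, as were the windows from 1 ligand alone) and 33.3% to 37.1% with a list left out. Dense windows with a vehicle peak were 72.1% at 25, 86.1% at 40 and 82.95% with merged peaks. Median spacing was 4855 bp, 3702 bp and 5629 bp under these settings, and 4202 to 4663 bp with a list left out. Moving the grid by 50 kb or weighting the lists to equal length left these values within their counting intervals, and the number of windows at 528 and 493. The planned motif and gene comparisons were not run. No paired analysis was possible because each group has 1 library. Without depths or peak heights, a site missing from a list may still be bound.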

Other observations

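Counts of the ligand lists were compared over windows by Pearson's r. Over the 520 dense windows, r was 0.76 between mutant ICI and mutant tamoxifen and 0.52 between wild-type ICI and wild-type tamoxifen. Between the genotypes it was 0.23 with ICI and 0.31 with tamoxifen. Pairs that share neither genotype nor ligand had 0.37 (mutant ICI with wild-type tamoxifen) and 0.20 (mutant tamoxifen with wild-type ICI). Over the 5690 windows with 10 or more ligand peaks, the values were 0.85 and 0.65 within the mutant and the wild type, 0.56 and 0.63 between the genotypes with ICI and tamoxifen, and 0.66 and 0.54 for the pairs that share neither. Over the 15999 windows with any ligand peak they were 0.90 and 0.79, 0.75 and 0.78, and 0.81 and 0.74 in the same order. The mutant pair had the highest r in each set of windows, whereas the order of the other pairs changed with the set. The first 2 sets were selected on the sum of the same counts, each list is 1 library of its own length, and neighbouring windows are not independent, so the values only describe these lists. Mutant vehicle counts had r = 0.27 with mutant tamoxifen and -0.04 with wild-type tamoxifen over dense windows, while wild-type vehicle counts had 0.06 and 0.21 with these lists. Over the 5690 windows these values were 0.29, 0.11, 0.15 and 0.25 in the same order. Over the 15999 windows they were 0.38, 0.26, 0.30 and 0.35, so the gap between own and other genotype was narrower in the wider sets.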
